A study of Rattus norvegicus with 21 samples.

Results

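The comparison described here is vancomycin (VANCO) against PBS in total spinal cord. Its members were chosen by the titles of the samples: 3 cord libraries labelled VANCO and 3 labelled PBS, each numbered 1, 2 and 3, which make 6 of the 21 libraries of the series. All animals were wild-type LEW/Crl rats of 6 to 8 weeks, and controls and treated animals alike were dosed into the trachea for 7 days. The remaining libraries are 3 of total cord after neomycin (NEO) and 12 of microglia sorted as CD45low CD11b+ cells, 4 per treatment. The question set by the submitters is whether an antibiotic given this way is felt in the central nervous system.

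Vancomycin is a glycopeptide that blocks cell wall synthesis and acts mainly on Gram-positive bacteria, and it crosses epithelia poorly. Neomycin is an aminoglycoside that acts on the bacterial ribosome and mainly on Gram-negative bacteria. PBS is the buffer control. Total spinal cord holds neurons, astrocytes, oligodendrocytes and their precursors, vessels and microglia, the resident macrophages of the central nervous system. Per the labels' protocols the cord was homogenised, myelin was taken off on a Percoll gradient and the pellet was lysed, so what floats with myelin is under-represented in every group. The deposited files identify genes by Ensembl ID only. The gene reference available here held 0 Ensembl IDs, so 0 of 32883 IDs could be matched to a symbol. Neither marker genes of the tissue nor pathway lists could therefore be read, and 4 IDs are given, 2 with a lower and 2 with a higher value after vancomycin. Whether a library stands for 1 animal or a pool is not given in the labels, so a p-value measures spread between these libraries. In the main fit, which pairs libraries by number, it measures the spread left once differences between numbers are taken out.

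The 6 libraries held 16769410 to 20075565 counts, and 17937 to 18594 genes had at least 1 count in them. Libraries differed far more by their number than by their treatment. In a principal component analysis of the 9 cord libraries the first component (37.6% of the variance) put all libraries numbered 2 at one end, at -22.2, -20.5 and -18.2, and all libraries numbered 3 at the other, at 13.9 to 28.5. The second component (20.5%) set the libraries numbered 1 apart. The labels leave the meaning of the number unstated. For a quasi-likelihood F test of the number itself in edgeR, 4769 of 14677 genes (32.5%) had a Benjamini-Hochberg adjusted p under 0.05, with 2618, 2576 and 3319 genes without the libraries numbered 1, 2 and 3.

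The same order was seen when any pair of libraries was set side by side. Over the 8801 genes with a mean of at least 10 CPM (reads counted for a gene, scaled so that libraries have the same size), the log2 ratio of VANCO to PBS of the same number had an SD of 0.118, 0.140 and 0.156 for numbers 1, 2 and 3. Across different numbers that SD was 0.214 to 0.306. Between PBS libraries it was 0.240 to 0.311, and between VANCO libraries 0.205 to 0.276. A VANCO library was thus closer to the PBS library of its own number than to either of the other VANCO libraries, for each of the 3 numbers. A difference of at least 1.5-fold was seen for 14, 19 and 31 of the 8801 genes within numbers 1, 2 and 3, against 153 to 481 genes between one PBS library and another.

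**Figure D1:**
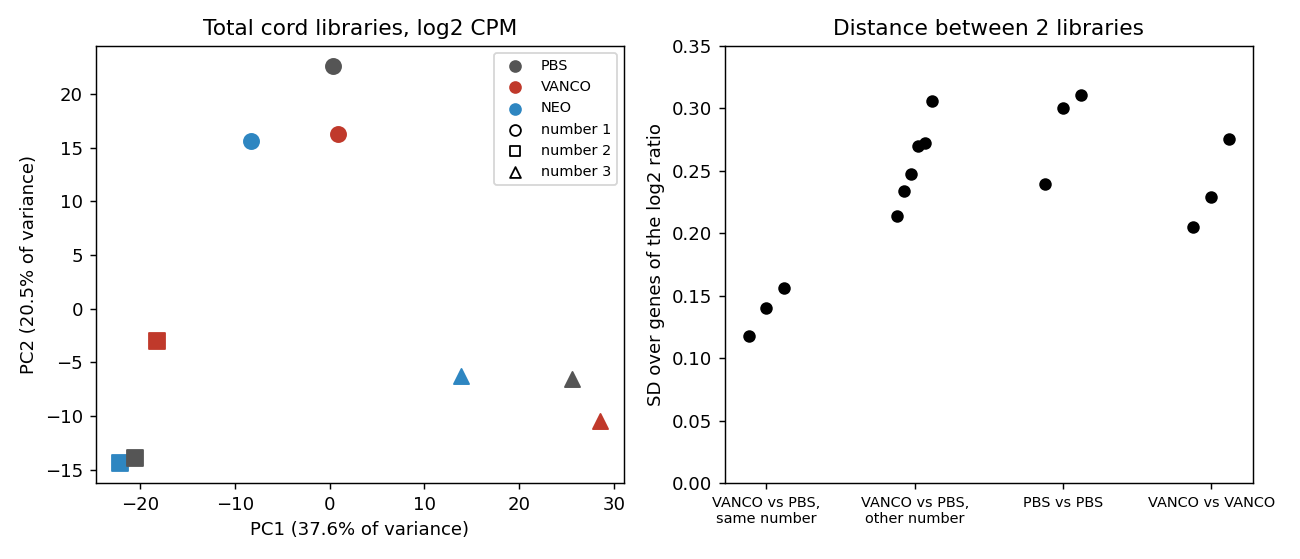
Left, the 9 total cord libraries on the first and second principal components of log2 CPM, coloured by treatment and shaped by replicate number. Right, the SD over 8801 genes of the log2 ratio of 2 libraries, 1 point per pair of libraries. Libraries group by number on the left, and on the right the 3 same-number pairs lie between 0.118 and 0.156, below all other pairs.

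Vancomycin was compared with PBS by pairing equal numbers. In the paired model 1 of 14677 genes (0.00681%) passed an adjusted p of 0.05 in edgeR's quasi-likelihood test, and it was lower after vancomycin. An unadjusted p under 0.05 was reached by 433 genes (2.95%), of which 215 (1.46%) had a higher and 218 (1.49%) a lower value after vancomycin. If no gene differed, a share of 0.05 of the genes would be expected there, so 2.95% is below it. Without the block for the number, edgeR called 0 genes, and 124 had an unadjusted p under 0.05. The count of 1 rested on single libraries: leaving out PBS replicate 2 gave 0, as did leaving out VANCO replicate 1 or 2, and it was 2 (both higher) without PBS replicate 1, 4 (all lower) without PBS replicate 3 or NEO replicate 2, and 3 (all lower) without NEO replicate 3.

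ENSRNOG00000016837 was the gene called. It had 4.56, 3.62 and 0.123 CPM in PBS replicates 1, 2 and 3, from 85, 66 and 2 counts. After vancomycin it had 1.35, 0.850 and 0.174 CPM, from 25, 17 and 3 counts. Numbers 1 and 2 were high under PBS and lower under vancomycin, number 3 was near 0 under both, and the groups overlapped. Its paired log2 fold change was -1.79 (SE 0.27, 95% interval -2.34 to -1.24, edgeR adjusted p 0.00614), and it was lower in 2 of 3 pairs. This gene also differed between replicate numbers (edgeR adjusted p 3.98e-08). The unpaired log2 fold change was -1.80 with an SE of 1.16 and an adjusted p of 1.00, DESeq2 with the block gave -1.65 and an adjusted p of 1.00, and edgeR gave an adjusted p of 0.148, 0.487, 0.558 and 0.231 without PBS replicate 1, PBS replicate 2, VANCO replicate 1 and VANCO replicate 2.

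Among genes with a lower value, at least 1 CPM and the same sign in all 3 pairs, ENSRNOG00000058645 had the smallest p. Agreement of its pairs was therefore part of the choice. Its level was 28.2, 23.6 and 29.6 CPM in PBS replicates 1, 2 and 3 and 19.9, 17.6 and 24.99 CPM in VANCO. VANCO lay below PBS in 3 of 3 pairs, while the groups overlapped because VANCO replicate 3 stood above PBS replicate 2. The log2 fold change was -0.39 (SE 0.08, 95% interval -0.55 to -0.23), with an edgeR adjusted p of 0.258, so it did not pass. It passed when NEO replicate 2 was left out (adjusted p 0.0361), in a fit of the 6 compared libraries (0.0458) and with no filter on low counts (0.00173).

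Among genes with a higher value that met the same rule, 1 sign in all pairs included, ENSRNOG00000032112 had the smallest p. PBS replicates 1, 2 and 3 had 11.1, 11.7 and 10.1 CPM and VANCO replicates 15.1, 16.9 and 11.9 CPM. Every VANCO library lay above every PBS library, VANCO replicate 3 only narrowly. The log2 fold change was 0.42 (SE 0.10, 95% interval 0.22 to 0.61), with an edgeR adjusted p of 0.687. With no filter on low counts the adjusted p was 0.0382.

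ENSRNOG00000032206 came second in that direction under the same rule, so the agreement of its pairs was part of the choice. It had 1.99, 0.987 and 0.985 CPM in PBS and 2.54, 2.40 and 1.97 CPM in VANCO replicates 1, 2 and 3, from 16 to 48 counts per library. All 3 pairs were higher after vancomycin, and the groups met at PBS replicate 1 and VANCO replicate 3. The log2 fold change was 0.81 (SE 0.23, 95% interval 0.34 to 1.28, edgeR adjusted p 1.00).

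**Figure D2:**
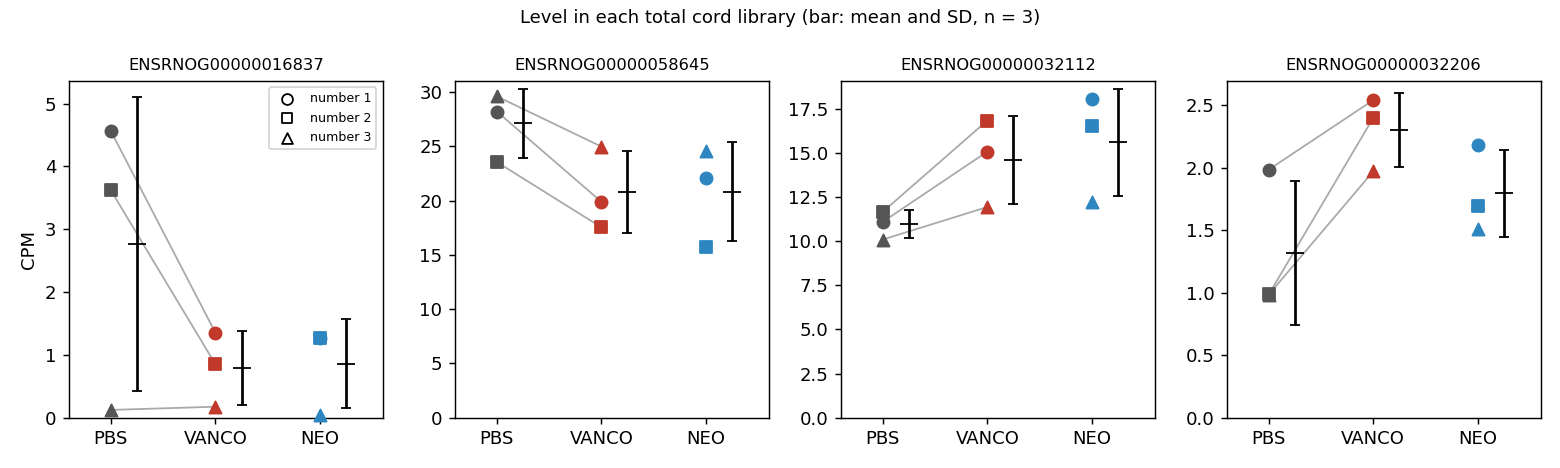
CPM of the 4 genes in each total cord library, with lines joining PBS and VANCO libraries of the same number and bars giving the mean and SD (n = 3). ENSRNOG00000016837 is near 0 in all libraries numbered 3, where PBS had 0.123 and VANCO 0.174 CPM, and NEO replicates 1 and 2 coincide at 1.27 CPM.

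Fold changes over the whole table were small. The median log2 fold change was 0.00, the quartiles were -0.06 and 0.06, and 92.2% of genes lay within 1.2-fold. At least 2-fold changes were estimated for 19 genes, 8 higher and 11 lower. Those 19 were low in abundance, from 0.311 to 7.86 CPM with a median of 0.547 CPM, and 14 of them were under 1 CPM. Among the 8801 genes of at least 10 CPM the largest log2 fold change in either direction was 0.55, so 0 reached 1.5-fold. Of all genes tested, 3321 (22.6%) had the same sign in the 3 pairs, 1595 higher and 1726 lower. Signs falling at random would agree in a share of 0.25.

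Genes counted under one treatment and not under the other were also few and faint. 38 genes were at 0 in all 3 PBS libraries and had a count in all 3 VANCO libraries, and the highest of these summed to 13 counts over the VANCO libraries. In the opposite direction 28 genes were found, the highest with 9 counts over the PBS libraries. Such counts are near the limit of detection at this depth.

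**Figure D3:**
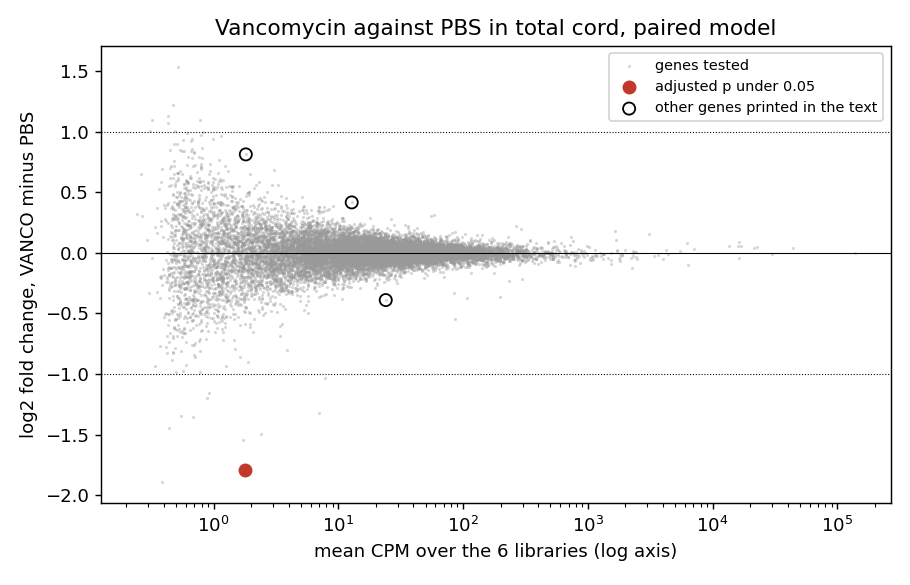
Log2 fold change of vancomycin against PBS in the paired model for each of 14677 genes, against mean CPM over the 6 libraries on a log axis, with dotted lines at 2-fold. The red point is ENSRNOG00000016837, and open circles mark the other 3 genes. Beyond 10 CPM no point exceeds 0.55 in either direction.

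How large a change the data leave room for was read from the 95% interval of each gene, which is not adjusted for the number of genes. Across all genes the median half-width was 0.19 on the log2 scale, and the interval lay within 2-fold of no change for 13939 of 14677 genes (94.97%) and within 1.5-fold for 12324 (84.0%). Abundance set this precision. Of 7515 genes at 10 to 100 CPM 99.9% had an interval within 2-fold and 99.5% within 1.5-fold, and of 1286 genes of at least 100 CPM 99.4% and 99.2%. Of 4808 genes at 1 to 10 CPM 97.4% and 74.2% did. Under 1 CPM, with 1068 genes and a median half-width of 0.77, 44.4% had an interval within 2-fold and 0 within 1.5-fold, so the interval of each of these genes reached past 1.5-fold in at least 1 direction. Unadjusted p-values under 0.05 followed abundance as well, from 4.21% of genes under 1 CPM to 1.01% of genes of at least 100 CPM.

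**Figure D4:**
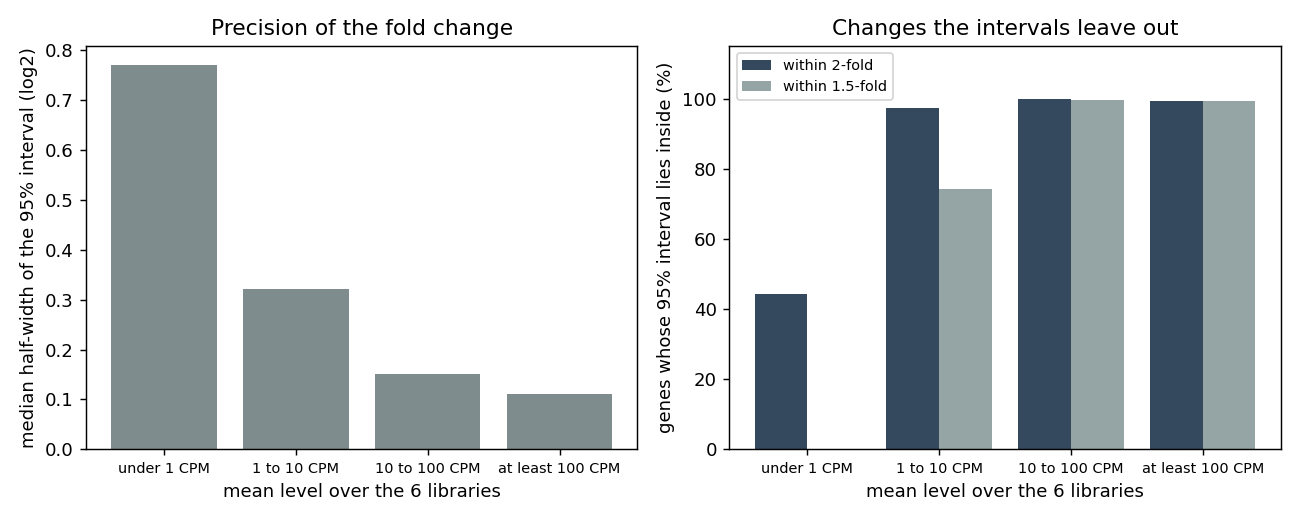
Genes by mean CPM over the 6 libraries. Left, the median half-width of the 95% interval of the log2 fold change; right, the percentage of genes whose interval lies within 2-fold or within 1.5-fold of no change. Half-widths shrink from 0.77 under 1 CPM to 0.11 at 100 CPM or more.

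Genes were then grouped by where they are expressed, using the NEO libraries of both tissues, which belong to neither of the groups compared, although those of cord share in the fit and its estimate of the spread. Of 15546 genes, 999 were at least 8-fold higher in sorted microglia than in total cord (microglia-enriched), 3138 at least 8-fold higher in cord (cord-enriched) and 11409 lay between. NEO microglia replicate 2 stood apart, with 4.57% of its counts from cord-enriched and 22.6% from microglia-enriched genes, where the other NEO microglia had 0.473 to 0.607% and 30.9 to 32.0%. Without it the classes held 1105 microglia-enriched, 3220 cord-enriched and 11221 other genes, and their median log2 fold changes after vancomycin stayed at -0.03, 0.00 and 0.00. In bulk tissue, fewer cells of a type and less RNA per cell cannot be told apart.

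Microglia-enriched genes made up 1.32, 1.28 and 1.26% of the counts in PBS replicates 1, 2 and 3, and 1.31, 1.27 and 1.22% in VANCO. Within pairs the share differed by -0.00546, -0.0116 and -0.0328 percentage points (VANCO minus PBS; mean -0.0166, SD 0.0143), so all 3 had the smaller value under vancomycin. An exact two-sided test over 3 pairs cannot give a p below 0.25, so no test of the shares is given. Of the 785 microglia-enriched genes tested, 0 were called, 6 had a higher and 17 a lower value at an unadjusted p under 0.05. Those 23 are 2.93% of the group, near the 2.95% of all genes. Their median log2 fold change was -0.03, against 0.00 for all genes tested, and by pair the median was -0.02, 0.00 and -0.07, so it was lowest in number 3.

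Cord-enriched genes took 40.2, 40.0 and 42.2% of the counts in PBS and 39.7, 39.8 and 41.9% in VANCO replicates 1, 2 and 3, a difference of -0.51, -0.21 and -0.22 percentage points within pairs (mean -0.311, SD 0.171). The genes between the classes had the opposite sign in all 3 pairs, with 0.518, 0.219 and 0.244 percentage points more after vancomycin (mean 0.327, SD 0.166). The 3 shares are parts of 1 total, so they do not vary independently. Of the 3138 tested, 0 were called in edgeR, with 46 higher and 56 lower at an unadjusted p under 0.05 (3.25%). Their median log2 fold change was 0.00. The 1 gene called lies among the genes between these classes, where 163 had a higher and 145 a lower value at an unadjusted p under 0.05 (2.87%).

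In the sorted microglia, which are separate libraries, the vancomycin values of the same genes could be set beside those in cord. Of 158 genes with a higher value in cord at an unadjusted p under 0.05 that were also tested in microglia, 95 (60.1%) had the same sign there, and of 167 with a lower value 102 (61.1%). Of all 11862 genes tested in both tissues 54.6% had the same sign. The median log2 fold changes in microglia were 0.04 and -0.02 for these higher and lower genes. Few of them reached an unadjusted p under 0.05 in microglia, where 2.9% of all genes tested did: 5 with the same and 1 with the opposite sign among the higher genes, 4 and 2 among the lower genes. ENSRNOG00000032112 had 7.32 ± 4.87 CPM (SD, n = 4) in VANCO microglia and 7.05 ± 5.34 CPM in PBS microglia, with a log2 fold change of 0.10 (SE 0.22). ENSRNOG00000032206 had 0.534 ± 0.0728 CPM in VANCO and 0.840 ± 0.155 CPM in PBS microglia (log2 fold change -0.61, SE 0.40), opposite in sign to cord. For ENSRNOG00000032206 the cord minus microglia difference of these effects was 1.46 (SE 0.43, edgeR adjusted p 0.491). The other 2 genes were too low in microglia to be tested there.

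Whether vancomycin acted differently in cord and in microglia was tested over all 21 libraries with the number as a block within each tissue. Of 15546 genes 18 (0.116%) passed an edgeR adjusted p of 0.05, all with the higher fold change in cord. All 18 were cord-enriched, a class that held 20.2% of the 15546 genes. The class was set from the NEO libraries and not from PBS microglia, so the label of these 18 genes depends on that choice. In cord itself their log2 fold changes after vancomycin ran from -0.28 to 0.16, with a median of -0.04, and 0 of the 18 had an unadjusted p under 0.05 there. Their summed level in cord was 584, 688 and 349 CPM in PBS replicates 1, 2 and 3 and 586, 667 and 306 CPM in VANCO, so a VANCO library stayed between 0.876 and 1.00 times its PBS partner. In microglia the 18 genes summed to 76.7, 97.9, 49.995 and 1.93 CPM in PBS replicates 1, 2, 3 and 5 and to 1.12, 5.61, 2.0005 and 1.06 CPM in VANCO. The NEO microglia, which belong to neither group compared, held 1.99, 24.6, 4.12 and 1.28 CPM of these genes in replicates 1, 2, 3 and 5. PBS replicates 1, 2 and 3 thus stood above the other 9 microglia libraries, PBS replicate 5 among them, while the cord libraries of both groups overlapped. The share of all cord-enriched genes in microglia did not follow the sum library by library, at 0.640, 1.17, 0.717 and 0.649% in PBS and 0.479, 1.02, 0.570 and 0.578% in VANCO replicates 1, 2, 3 and 5. It was smaller under vancomycin in 4 of 4 pairs. Of 1072 cord-enriched genes tested in microglia, 1 had a higher and 152 a lower value under vancomycin at an edgeR unadjusted p under 0.05. Their median log2 fold change there was -0.28. At the same threshold, 97 of the 10005 genes between the classes tested in microglia were higher and 59 lower. Of 785 microglia-enriched genes tested there, 24 were higher and 8 lower. Over all 12570 genes tested in microglia, 2.9% had an edgeR unadjusted p under 0.05. The cord-enriched class was set on low values in NEO microglia, and only 1072 of its 3138 genes passed the count filter in microglia. Members could pass that filter through a group where they happened to be high, so these counts are no test of the class. The part of the cord-enriched class as a whole in the result was not tested. With no block edgeR called 0 genes, although 234 had an unadjusted p under 0.05. DESeq2 with the block called 68. The count of 18 was 231, 10 and 30 without PBS microglia replicates 2, 3 and 5, and 7, 4 and 4 without VANCO microglia replicates 1, 2 and 3.

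**Figure D5:**
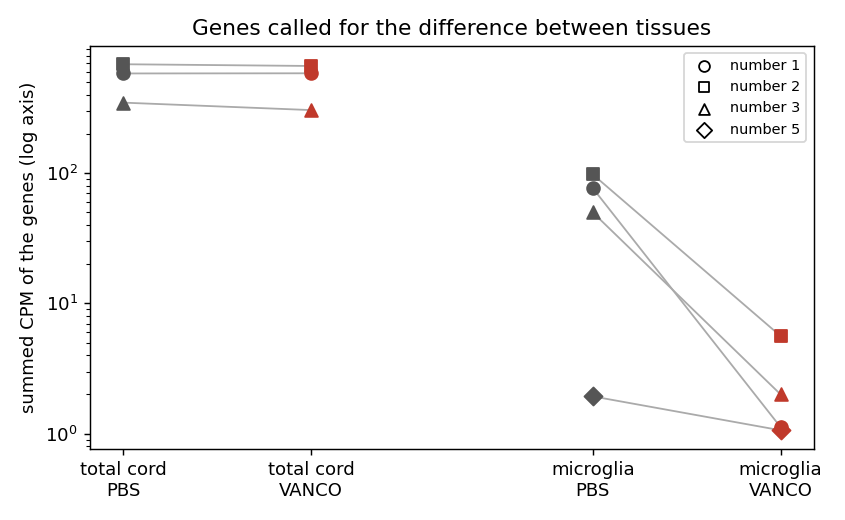
Summed CPM, on a log axis, of the 18 genes called for the difference between tissues, in each PBS and VANCO library of total cord and of microglia, with lines joining equal numbers. Cord pairs are nearly level, while in microglia PBS replicates 1, 2 and 3 lie at 49.995 to 97.9 CPM, PBS replicate 5 at 1.93 CPM and all VANCO libraries at 1.06 to 5.61 CPM. The genes were chosen by this contrast, so the plot describes them.

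Vancomycin was last set against neomycin in the same tissue. For the direct comparison of VANCO with NEO in total cord, 64 of 14677 genes (0.436%) passed an edgeR adjusted p of 0.05, 7 higher and 57 lower after vancomycin. The 57 genes had a median log2 difference of -0.81. Against PBS their median was -0.02 after vancomycin, with 23 of 57 above 0, and 0.77 after neomycin, with 57 of 57 above 0. The 7 genes had a median of 0.11 against PBS after vancomycin and -0.24 after neomycin. These medians share libraries with the contrast that chose the genes and, for both antibiotics, the PBS libraries. With no block edgeR called 0 genes, although 331 had an unadjusted p under 0.05, DESeq2 with the block called 41, and edgeR called 36 without VANCO replicate 1.

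The 4 printed genes were not among the 64. ENSRNOG00000016837 had 1.27, 1.27 and 0.0420 CPM in NEO replicates 1, 2 and 3, with a log2 fold change of -1.68 (SE 0.26) after neomycin beside -1.79 after vancomycin. ENSRNOG00000058645 had 22.1, 15.8 and 24.6 CPM in NEO, with -0.39 after either antibiotic. ENSRNOG00000032112 had 18.1, 16.6 and 12.2 CPM in NEO, with 0.51 after neomycin beside 0.42 after vancomycin. These 3 genes passed after neomycin, with an edgeR adjusted p of 0.000592, 0.00918 and 0.00464, in a comparison where 0.681% of genes did, while only ENSRNOG00000016837 passed after vancomycin. With no block the adjusted p after neomycin was 1.00 for each. ENSRNOG00000016837 lost that call without NEO replicate 1 (0.0668), ENSRNOG00000058645 without NEO replicate 2 (0.0645) or PBS replicate 1 (0.0622) or 2 (0.0774), and ENSRNOG00000032112 without NEO replicate 1 (0.0958) or PBS replicate 1 (0.0729) or 2 (0.0550). In DESeq2 with the block the adjusted p after neomycin was 0.0684 for ENSRNOG00000058645 and 0.0510 for ENSRNOG00000032112, and none was obtained for ENSRNOG00000016837. The direct log2 difference of VANCO and NEO was -0.11 (SE 0.33), 0.00 (SE 0.08) and -0.09 (SE 0.09) for these 3 genes, with an edgeR adjusted p of 0.957, 0.998 and 0.838. ENSRNOG00000032206 had 2.18, 1.69 and 1.51 CPM in NEO, a log2 fold change of 0.45 after neomycin (edgeR adjusted p 0.535) and a direct difference of 0.36 (SE 0.21, edgeR adjusted p 0.652). Both antibiotics were compared with the same 3 PBS libraries, so their values against PBS are not independent.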

How the data were processed

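The authors deposited 1 table of raw counts per library, whole numbers for 32883 Ensembl gene IDs. The rn6 build is named in the submitters' processing notes, together with STAR (2.5.2a), the counter featureCounts (1.5.0-p1) and the demultiplexer bcl2fastq (2.20.0.422). Strand setting and annotation release were not given in the sources used here. Overlapping or near-identical genes may therefore be miscounted.

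Counts of the 9 cord libraries were fitted in R 4.3.3 with edgeR 4.0.16 (filterByExpr, TMM factors, robust quasi-likelihood test, Benjamini-Hochberg adjustment, threshold 0.05), with group means and the replicate number as a block. CPM use TMM-scaled library sizes, and log2 CPM have a prior count of 2. NEO libraries contribute to the shared spread. The scripts were tested on simulated data. No library was identical to another, and within groups the 6 pairs of libraries differed by more than sampling noise (chi-square per degree of freedom 8.35 to 25.8).

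The labels leave the meaning of the number unstated. Equal numbers were paired because the comparison was set up that way, and the pairing was then checked. Deviations of log2 CPM from the group means had r from 0.359 to 0.588 for same-number libraries of different treatments (9 pairs). For the others r was -0.485 to 0.00909. Deviations cancel within a group, so the second range is partly built in. The common biological coefficient of variation was 5.88% with the block and 12.1% without it.

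The rule for the genes named was every gene called, then those with the smallest p in each direction with at least 1 CPM and 1 sign in all pairs. It asked for symbols, and none could be matched, so at most 2 IDs per direction are given. The 34 gene and marker lists drawn up needed symbols and were not run. The comparison, lists and alternatives were chosen with earlier results of these data known. Alternatives were DESeq2 1.42.0, limma 3.58.1 with voom, other scalings, filters and sample sets, and leaving out libraries.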

Additional observations from a re-analysis of the deposited data

Results flagged for a closer look

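The number of genes whose vancomycin effect differed between total cord and microglia, 18 by edgeR's test of the difference with the block, was marked because the groups differ under the same contrast. In microglia, where a group has 4 libraries, 8 sets of values were examined for a library far from the rest by the ratio of its gap to the range, and 2 had one; chance gives about 1 in 20 for a single set, and the sets reuse the same libraries. Both were PBS replicate 2. ENSRNOG00000032112 had 15.05 CPM there, with 4.11 to 4.59 CPM in the other PBS microglia, and VANCO replicate 2 likewise had 14.5 CPM, with 3.85 to 5.82 CPM in the other VANCO microglia. Cord-enriched genes took 1.171% of the counts there, with 0.640 to 0.717% in the other PBS microglia. VANCO replicate 2 likewise had 1.02%, with 0.479 to 0.578% in the other VANCO microglia. NEO replicate 2 had 4.57%, with 0.473 to 0.607% in the other NEO microglia.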

How the results depend on the processing

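The count of 1 gene for vancomycin against PBS in cord was 0 in edgeR with no replicate block, 0 in DESeq2 with the block (67 genes at an unadjusted p under 0.05) and without it (31), 2 in limma-voom with the block and 0 without it (128), 8 (1 higher, 7 lower) with no filter on low counts, 4 in a fit of the 6 compared libraries and 0 in that fit with no block (100 at an unadjusted p under 0.05). It ranged from 0 to 5 when a library or all libraries of a number were left out. It was 1 with RLE factors, upper quartile factors and a filter of 1 CPM in 3 libraries. ENSRNOG00000016837 kept its direction in all 23 alternatives (-1.90 to -1.20) and lost its call in 11 of them, with adjusted p from 4.62e-07 to 1.00. The other 3 genes kept their direction in all 23, but they were chosen for 1 sign in all pairs, which largely set this outcome in advance. The percentage of genes with an interval within 2-fold, 94.97%, was 62.7% with no filter, where many genes have few counts, and 90.2 to 94.3% with libraries left out. The 64 genes for VANCO against NEO became 0 with no block and 41 in DESeq2, and ranged from 36 to 64 with libraries left out. The comparison of NEO with PBS, which called 100 genes, gave 0 with no block (400 at an unadjusted p under 0.05), 57 in DESeq2 and 57 to 89 with libraries left out (65 without NEO replicate 1 and 57 without PBS replicate 3). The 18 genes of the difference between tissues became 0 with no block and 68 in DESeq2, and ranged from 3 to 231 with libraries left out. The 4769 genes differing by number ranged from 2576 to 3319 without all libraries of a number. The lowest same-number correlation was 0.585 over genes of at least 10 CPM. The cause of these changes was not tested, apart from the fewer counts noted. The alternatives for NEO against PBS, the intervals, the number itself, the microglia libraries and the expression classes were chosen after seeing the data. Depth limits statements on genes under 1 CPM.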
